A study of Mus musculus with 18 samples.

Results

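A set of 7 genes of the PRAME-like family, Pramef25, Pramel1, Pramel3, Gm12800, Gm13119, BC061212 and B020004J07Rik, were followed across 6 kinds of mouse pluripotent stem cell. They were chosen from RNA-seq of these same samples for their high read counts in ASCs, and they are 7 of the 48 genes that carry a PRAME family or oogenesin name in the annotation and of the 35773 genes counted. Because the ASC values made the choice, every ASC level of the 7 genes is given as a description without a test. The levels of the other 5 groups, ESC-ASCs included, were in view at the choice, so that tests among them are not independent of it either.

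The study compared culture states of mouse pluripotency, with 3 samples in each of 6 groups, 18 in all. AFSCs were primed cells grown from blastocysts with Activin A and bFGF, and ASCs, advanced pluripotent stem cells, were derived from AFSCs in ABCL, a medium with Activin A, BMP4, the GSK3 inhibitor CHIR99021 and LIF. ESCs were naive embryonic stem cells in 2i/LIF, ESC-ASCs were ESCs converted by culture in ABCL, EpiLCs were epiblast-like cells and EpiSCs were primed epiblast stem cells. All 18 samples carried the same labels for strain, 129S2/SvPasCrl, and for genotype, wild type, whereas the study's methods describe blastocysts from crosses with reporter males of mixed background. The study calls the RNA-seq samples biological replicates and does not tie each to a line or clone here. The headers of the ESC-ASC tables carry a name, mSQ, that the ESC tables do not have, and the study converted more than 1 ESC line, so that a difference of line and the culture in ABCL cannot be told apart in ESC-ASCs against ESCs. In the headers the name ASC stands with the samples labelled AFSC and ABCL with those labelled ASC, and the labels were followed.

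PRAME, the founder of the family, is a cancer-testis antigen, a protein made in testis and many tumours and in few other adult tissues. Its relatives are built of leucine-rich repeats, and PRAME itself serves as a substrate receptor of a cullin ubiquitin ligase. In the mouse the family has expanded into tandem copies, many of them read in oocytes, early cleavage embryos and testis. Pramel6 and Pramel7 are known in naive ESCs, where Pramel7 acts on the DNA methylation cofactor UHRF1, and Pramef12 is needed in spermatogonia. Several copies are also read in the rare 2-cell-like cells of ESC cultures, together with the Zscan4 and Tcstv genes.

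Of the 7 genes, 5 lay on chromosome 4, BC061212 on chromosome 5 and Pramel3 on the X chromosome, and all 48 family genes were spread over chromosomes 4 (28 genes), 5 (14), 2 (2), 12 (2) and X (2). In GRCm38 the genes spanned chr4:101834969-101844023 on the minus strand (B020004J07Rik, RefSeq Pramel17), chr4:101909121-101911908 on the plus strand (Gm12800, Pramel18), chr4:143394428-143400160 on the plus strand (Pramel1), chr4:143948580-143951016 on the minus strand (Pramef25, Pramel16), chr4:144357942-144364419 on the plus strand (Gm13119, Pramel31), chr5:94066151-94070545 on the minus strand (BC061212, Pramel37) and chrX:135302307-135312652 on the plus strand (Pramel3). Gm12800 and BC061212 were matched to their RefSeq names by position only. The transcripts of Pramef25 and Gm13119 were 96.4% identical over aligned bases, the highest value among the 21 pairs of the 7 genes, and the lowest was 61.0%.

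Copies that resemble each other share sequencing fragments, and the study's counting gave a fragment to every gene and every position it matched. The first 90 coding bases show the range among the 7 genes and their closest copies. In the first pair below, from the GENCODE M21 transcripts on GRCm38, capitals mark the bases that differ between Gm12800 and its neighbour Gm12794, 4 of 90, and the third sequence is common to BC061212 and its copy Gm7978, with 0 differences.
Gm12800: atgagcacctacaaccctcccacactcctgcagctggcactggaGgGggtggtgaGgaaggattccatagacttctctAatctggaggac
Gm12794: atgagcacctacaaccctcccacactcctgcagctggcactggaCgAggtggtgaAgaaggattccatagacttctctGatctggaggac
BC061212 and Gm7978: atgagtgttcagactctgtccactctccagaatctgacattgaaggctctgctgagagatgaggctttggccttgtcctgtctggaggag
Pramel1: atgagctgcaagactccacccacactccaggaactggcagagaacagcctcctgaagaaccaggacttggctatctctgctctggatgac
Pramel3: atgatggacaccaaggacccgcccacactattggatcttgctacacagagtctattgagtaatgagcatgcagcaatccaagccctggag
Over the whole transcript, BC061212 and Gm7978 were 100% identical and Gm12800 and Gm12794 96.8% identical. The share of a gene's 50-base stretches that occur in any other annotated gene was 100% for BC061212, 81.8% for Pramel3, 63.5% for Pramef25, 45.7% for Gm12800, 38.6% for Gm13119 and 13.4% for B020004J07Rik, while Pramel1 shared none (0%). The counts of BC061212 thus cannot be told from those of Gm7978, those of Pramel3 are uncertain because of Gm15023, AV320801, Gm5128 and Gm7903, and Pramel1 is the one member whose counts rest on sequence of its own at this length.

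**Figure D1:**
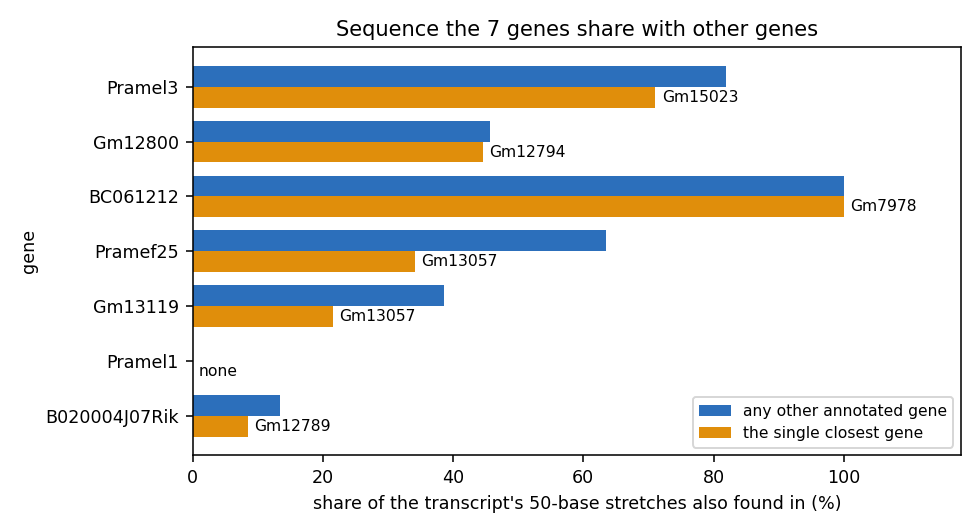
Share of each transcript's 50-base stretches, in percent on the x axis, that also occur in any other annotated gene (blue bars) and in the single closest gene (orange bars, with its name), for the 7 genes on the y axis. BC061212 is fully shared with Gm7978, Pramel3 shares 71.1% with Gm15023, and Pramel1 shares none.

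RefSeq promoters on GRCm38.p6, 250 bases before to 50 bases after the start of transcription, were held for 6 of the 7 genes, and Gm12800 was the one without an entry. They are shown because the 6 genes have their highest level in the same cells, and the windows show which promoter motifs each holds. Of these, 3 are printed, with capitals marking matches on either strand to TATAAA, the TATA box, CCAAT, the CCAAT box, and GGGCGG, the GC box. They are Pramel1 (chr4:143394191-143394490, plus strand), BC061212 (chr5:94070496-94070795, minus strand) and Pramel3 (chrX:135302066-135302365, plus strand).
Pramel1 promoter: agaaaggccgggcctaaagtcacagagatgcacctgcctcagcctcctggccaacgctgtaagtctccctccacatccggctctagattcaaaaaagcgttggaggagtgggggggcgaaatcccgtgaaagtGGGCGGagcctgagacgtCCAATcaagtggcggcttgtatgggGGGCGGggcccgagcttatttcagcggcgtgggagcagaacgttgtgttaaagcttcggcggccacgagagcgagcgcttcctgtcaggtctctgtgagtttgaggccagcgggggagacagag
BC061212 promoter: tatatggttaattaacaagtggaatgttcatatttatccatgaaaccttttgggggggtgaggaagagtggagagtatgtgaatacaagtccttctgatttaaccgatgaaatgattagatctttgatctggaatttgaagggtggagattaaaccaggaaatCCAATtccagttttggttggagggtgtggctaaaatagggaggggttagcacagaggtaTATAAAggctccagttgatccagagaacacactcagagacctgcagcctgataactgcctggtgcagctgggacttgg
Pramel3 promoter: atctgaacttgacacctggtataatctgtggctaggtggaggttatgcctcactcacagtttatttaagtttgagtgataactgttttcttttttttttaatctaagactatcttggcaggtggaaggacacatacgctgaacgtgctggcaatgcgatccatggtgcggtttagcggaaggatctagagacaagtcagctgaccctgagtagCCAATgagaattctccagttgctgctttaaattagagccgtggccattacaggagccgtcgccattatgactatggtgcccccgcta
The Pramel1 window held 20 CpG dinucleotides at 60.0% GC, whereas the other 5 held 1 to 9, and the median of the 6 was 3 beside 7 over all 32851 mouse promoters. TATAAA stood in the windows of Gm13119 and BC061212, and 13.6% of all promoters hold it. CCAAT stood in Pramel1, Pramel3, BC061212 and B020004J07Rik, beside 37.4% of all promoters. GGGCGG stood in Pramel1 only among the 6, with 2 matches, beside 35.7% of all promoters, and the E-box CACGTG, found in 7.15% of all promoters, was in none of these windows.

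Sequencing depth, as total fragments counted in genes, was 4961934 to 9906473 in 15 of the samples and 17813619 to 18071600 in the 3 ESC-ASC samples. Levels are given as the authors' method defines them, counts divided by a DESeq2 size factor and by exonic length in kb, and are called normalized reads per kb. All intervals and limits cover counting error only, and a bulk level does not tell fewer cells with the RNA from less RNA per cell. The pluripotency genes Pou5f1, Sox2 and Nanog had counts in every group, with a summed level of 6207 to 12731 normalized reads per kb over the 18 samples. A sum of 5 naive markers was 2530 to 2860 in the samples labelled ASC and 15.7 to 24.0 in those labelled AFSC. Replicate 1 stood apart in ASCs, AFSCs, EpiLCs and ESCs, where its counts differed from replicates 2 and 3 by a chi-square per degree of freedom of 21.5 to 100, beside 1.65 to 11.8 between replicates 2 and 3 of the same groups. Calls of the 7 genes that change without it are named beside the result.

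ASCs held the highest level of each of the 7 genes. Their summed level was 501.8, 332 and 352 normalized reads per kb in the 3 ASC samples, 28.3, 31.4 and 28.4 in ESC-ASCs, 33.5, 28.0 and 24.7 in EpiLCs, 18.1, 16.5 and 18.3 in ESCs, 0.364, 0 and 0.371 in AFSCs and 0 in every EpiSC sample. Without ASC replicate 1, the ASC mean of Pramel3 was 82.1 in place of 110, and those of the other 6 genes moved by less, from 0.879 to 1.15 times as a ratio of the mean with to the mean without it. For 7 of 7 genes each ASC sample stood above each of the 15 other samples, which is the property they were chosen for. AFSCs, from which the ASCs were derived, gave 1 fragment of Pramel1 and 1 of Pramel3 over 3 samples, and EpiSCs gave 0 for all 7.

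Pramel3, a member known from testis, had the highest ASC mean and the widest spread. Its level was 166, 77.5 and 86.6 normalized reads per kb in the 3 ASC samples, a mean of 110 ± 48.9 (SD, n = 3), and 570, 276 and 292 fragments stood behind these values. It was 9.58, 11.6 and 6.03 in ESCs, 4.37, 8.61 and 6.08 in EpiLCs and 0.137, 0.793 and 0.680 in ESC-ASCs, with 1 fragment in AFSCs and 0 in EpiSCs. ASC replicate 1 stood 2.15 times above the lowest ASC sample, and ESC and EpiLC samples overlapped. The ASC mean was 12.1 times that of ESCs and 205 times that of ESC-ASCs, so that ESC-ASCs stood below both. As Pramel3 is X-linked, the X chromosome was read beside it, and the median log2 fold change of 641 X-linked genes lay 1.03 above that of autosomal genes in ASCs against ESCs and 0.02 above it in ESC-ASCs against ESCs. The part of this shift in the Pramel3 level was not tested.

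Gm12800 and Pramef25 were near 0 in ESCs and stood higher in ESC-ASCs and EpiLCs. Gm12800 reached 113, 81.4 and 75.4 normalized reads per kb in ASCs, 5.91, 6.38 and 4.49 in ESC-ASCs and 7.15, 5.47 and 5.88 in EpiLCs. In ESCs it had 1 fragment in 3 samples, and in AFSCs and EpiSCs none. Its ASC mean of 89.8 ± 20.1 (SD, n = 3) was 16.1 times that of ESC-ASCs and 14.6 times that of EpiLCs, groups whose samples overlapped. Over ESCs the ratio of summed counts was 296, with a 95% exact counting interval of 52.7 to 11712, and over AFSCs and EpiSCs it was at least 112-fold and at least 128-fold higher, taking 3 fragments over the group as the limit for a count of 0.

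Pramef25 was the member with the least spread in ASCs. It stood at 55.7, 51.2 and 50.8 normalized reads per kb, a mean of 52.6 ± 2.75 (SD, n = 3). ESC-ASCs held 4.80, 6.96 and 4.78, EpiLCs 4.80, 4.73 and 3.18, and ESCs 1.17, 0 and 0. ESC-ASC and EpiLC samples overlapped, and both groups stood above every ESC sample. The ASC mean was 9.53 times that of ESC-ASCs and 12.4 times that of EpiLCs, and it was at least 75.9-fold higher than in AFSCs and at least 86.9-fold higher than in EpiSCs.

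Gm13119, the near-identical relative of Pramef25, had almost the same ASC level but another order below it. Its levels were 60.3, 48.1 and 47.1 normalized reads per kb in ASCs, 4.10, 2.80 and 4.32 in ESC-ASCs, 5.64, 2.78 and 3.20 in ESCs and 2.76, 0.845 and 1.02 in EpiLCs, with no fragment in AFSCs or EpiSCs. ESCs and ESC-ASCs overlapped, and the ASC mean of 51.8 ± 7.33 (SD, n = 3) was 13.4 and 13.9 times theirs. The ratio to EpiLCs was larger, 33.6. Pramef25 and Gm13119 share sequence with each other and with other copies, so that their near-equal ASC levels may partly count the same fragments.

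BC061212, read together with its identical copy Gm7978, had EpiLCs as the second group. It stood at 82.5, 49.8 and 63.0 normalized reads per kb in ASCs, 12.8, 5.13 and 5.08 in EpiLCs, 2.93, 5.41 and 1.33 in ESC-ASCs and 1.04, 0 and 3.53 in ESCs, and no fragment was counted in AFSCs or EpiSCs. The ASC mean of 65.1 ± 16.4 (SD, n = 3) was 8.49 times that of EpiLCs, 20.2 times that of ESC-ASCs and 42.8 times that of ESCs. EpiLCs overlapped ESC-ASCs, and ESC-ASCs overlapped ESCs.

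Pramel1 and B020004J07Rik were the lowest of the 7 genes in ASCs. Pramel1, the member with no shared stretch, was at 17.8, 14.5 and 18.8 normalized reads per kb in ASCs and at 9.95, 8.57 and 12.6 in ESC-ASCs, means of 17.0 ± 2.26 and 10.4 ± 2.05 (SD, n = 3), so that the lowest ASC sample stood only just above the highest ESC-ASC sample and the means differed 1.64 times. ESCs held 0.705, 2.08 and 4.79 and EpiLCs 1.65, 3.17 and 3.45, which overlapped, and AFSCs had 1 fragment. B020004J07Rik had 12, 19 and 19 fragments in ASCs, or 6.55, 9.98 and 10.5 normalized reads per kb, and 2, 2 and 1 in ESC-ASCs. It had none in the other 4 groups, and its ASC mean of 9.03 ± 2.16 (SD, n = 3) was 21.5 times that of ESC-ASCs and at least 13.5-fold higher than in ESCs.

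**Figure D2:**
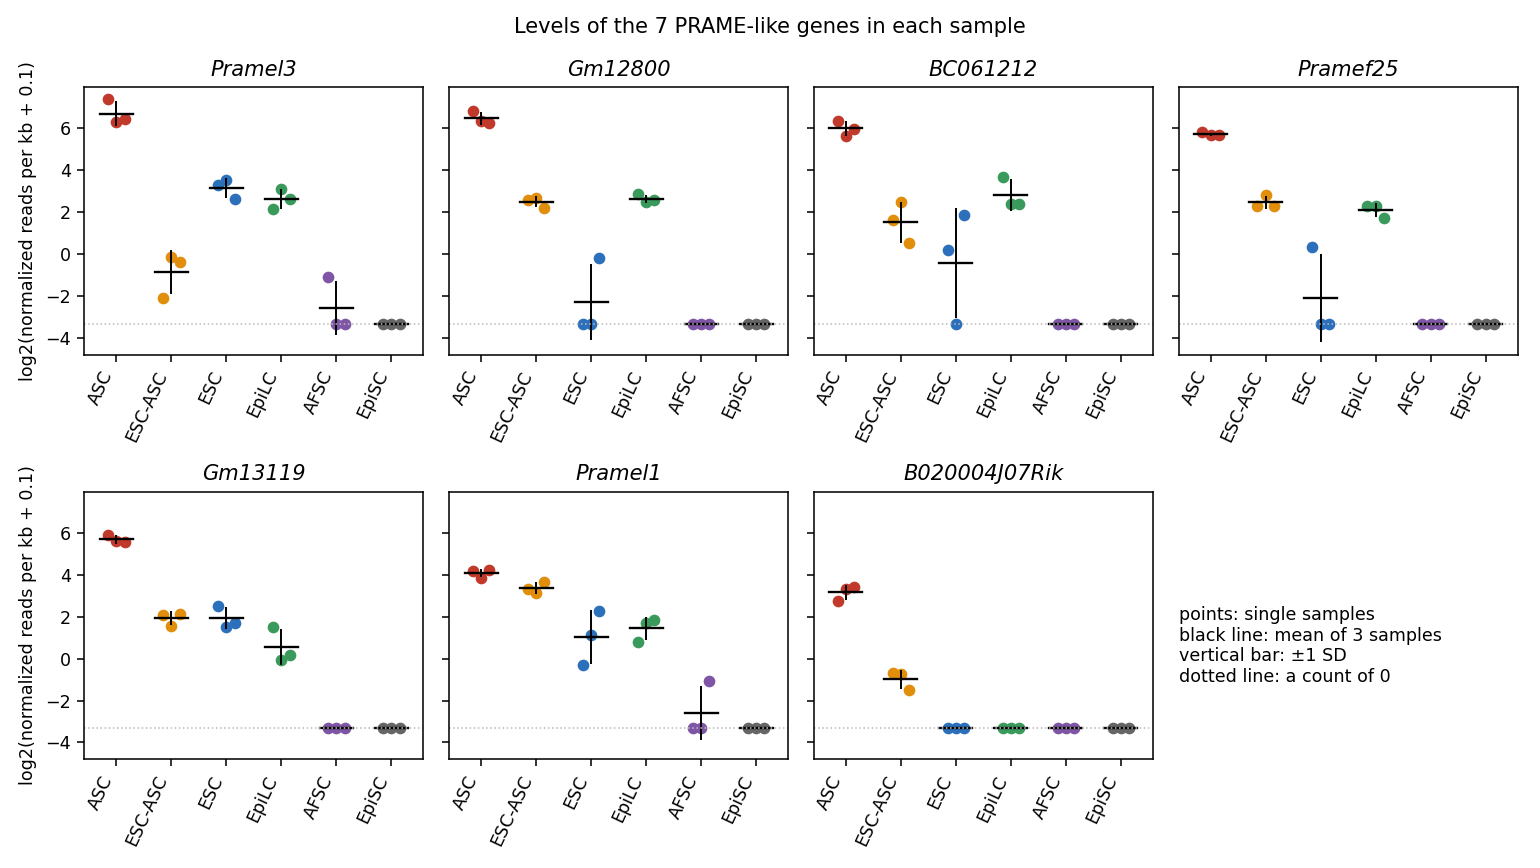
Level of each of the 7 genes, as log2(normalized reads per kb + 0.1) on the y axis, in the 18 samples by group on the x axis, with points for samples, horizontal lines for means of 3 samples and vertical bars for 1 SD. Each gene has its 3 ASC samples above the other 15, AFSC and EpiSC samples lie at or near a count of 0, and Pramel3 is the panel in which ESC-ASCs lie below ESCs.

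Whether ABCL culture of ESCs moved the same genes was read from ESC-ASCs against ESCs, tested with edgeR's quasi-likelihood test and Benjamini-Hochberg adjustment over 16901 genes. All 7 genes were among those tested, B020004J07Rik through the ASC samples alone. Of the 7, Pramel1, Gm12800 and Pramef25 were higher in ESC-ASCs, Pramel3 was lower, and Gm13119, BC061212 and B020004J07Rik were not called. Over all genes tested, 30.6% were higher and 29.6% lower in this comparison. The median fitted log2 fold change of the 7 genes was 1.86, or 0.96 with B020004J07Rik set at the bound its count of 0 in ESCs allows, beside 0.03 over all genes tested.

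Pramel1 was higher by a log2 fold change of 1.86 ± 0.40 (SE), adjusted p = 0.00076, and each ESC-ASC sample stood above each ESC sample. Pramef25 had 56 fragments in ESC-ASCs against 1 in ESCs, a ratio of 21.1 after size factors with a counting interval of 3.63 to 847 (adjusted p = 0.000182). For Gm12800 it was 49 against 1, a ratio of 18.4 with an interval of 3.16 to 743 (adjusted p = 0.000297). Pramel3 differed the other way, by a log2 fold change of -4.003 ± 0.54 (SE), adjusted p = 6.4e-06, with every ESC-ASC sample below every ESC sample. Gm13119 differed by 0.02 ± 0.40 (adjusted p = 0.965) and BC061212 by 0.96 ± 0.83 (adjusted p = 0.333), and the samples of the groups overlapped for both. B020004J07Rik, with 5 fragments against 0, had an adjusted p of 0.112. The 4 calls held under every alternative tried, among them leaving out each replicate and thinning the deeper ESC-ASC samples.

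Against EpiLCs, ESC-ASCs were higher in Pramel1 and Gm13119 and lower in Pramel3, where 31.9% of all genes tested were higher and 32.2% lower. Pramel1 differed by 1.85 ± 0.38 (SE) on the log2 scale (adjusted p = 0.000425) and Pramel3 by -3.53 ± 0.55 (adjusted p = 2.69e-05), both with samples that did not overlap. The call of Gm13119, 1.29 ± 0.46 with an adjusted p of 0.0234, was lost without EpiLC replicate 2 or 3, without ESC-ASC replicate 1 or 3 and when ESC-ASC counts were thinned to the depth of the other samples, with adjusted p between 0.0519 and 0.12. Gm12800 and Pramef25, at -0.15 ± 0.36 and 0.35 ± 0.37, and BC061212, at -1.21 ± 0.56, were not called, with adjusted p of 0.737, 0.421 and 0.0711. BC061212 was called lower, at -1.76 with an adjusted p of 0.0262, without ESC-ASC replicate 2.

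Set against both primed groups, ESC-ASCs held counts where AFSCs and EpiSCs held almost none. Against AFSCs 5 of the 7 genes were higher and none lower, with 35.3% of all genes tested higher and 33.7% lower. Against EpiSCs 6 of 7 were higher, with 38.2% of all genes tested higher and 34.0% lower. Pramel1 had 174 fragments against 1 in AFSCs, a ratio of 74.4 (counting interval 13.2 to 2956), and was at least 28.4-fold higher than in EpiSCs. Gm12800, Pramef25, Gm13119 and BC061212 were at least 6.98-fold, 7.96-fold, 6.72-fold and 5.24-fold higher than in AFSCs. Pramel3, with 12 fragments, was not called against AFSCs (adjusted p = 0.194). Its call against EpiSCs (adjusted p = 0.0423) was lost when counts were thinned (0.138) and without EpiSC replicate 1, 2 or 3 or ESC-ASC replicate 2 or 3 (0.0704 to 0.0955).

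EpiLCs are made from naive ESCs on the way to a primed state, and in them Gm12800, Pramef25 and BC061212 were higher than in ESCs, where 28.7% of all genes tested were higher and 26.6% lower. Gm12800 had 26 fragments against 1, a ratio of 20.1 with a counting interval of 3.30 to 823 (adjusted p = 0.00033), and Pramef25 had 21 against 1, a ratio of 16.2 with an interval of 2.61 to 671 (adjusted p = 0.00106). BC061212 differed by 2.17 ± 0.78 (SE) on the log2 scale (adjusted p = 0.028), and lost the call without EpiLC replicate 1 (0.126), ESC replicate 1 (0.0627) or ESC replicate 2 (0.115). Pramel1 at 0.01 ± 0.53 and Pramel3 at -0.47 ± 0.41 were not called (adjusted p = 0.994 and 0.349) and their samples overlapped. Gm13119 stood at -1.26 ± 0.53 with an adjusted p of 0.0561. With the replicate number as a block, it was called lower, at -1.29 with an adjusted p of 0.0424. It was called lower as well without EpiLC replicate 1, at -1.92 with an adjusted p of 0.0154. These comparisons use the same ESC samples as those of ESC-ASCs.

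**Figure D3:**
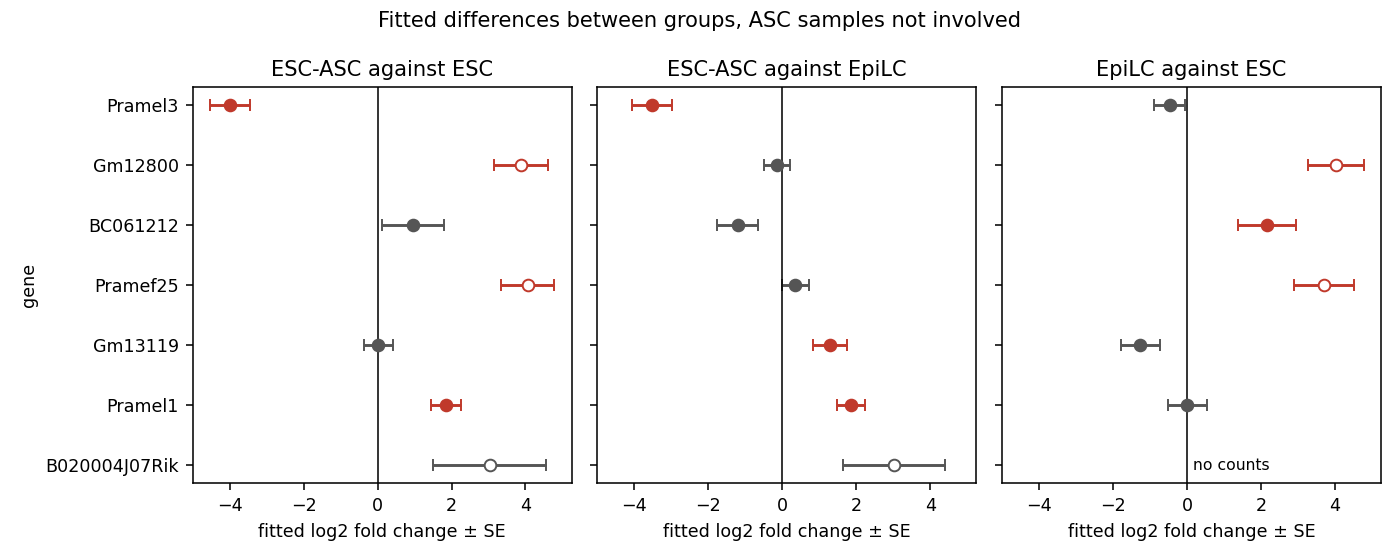
Fitted log2 fold change on the x axis, with bars of 1 SE, of the 7 genes on the y axis in ESC-ASCs against ESCs, ESC-ASCs against EpiLCs and EpiLCs against ESCs, red where the adjusted p was below 0.05 and open where a group had 3 fragments or fewer, so that the fitted size is no bound. Pramel3 is at -4.003 and -3.53 in the ESC-ASC comparisons, and Pramel1 is at 1.86 and 1.85.

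In the primed cells the 7 genes were low or without counts. AFSCs were lower than ESCs in Pramel1, Pramel3 and Gm13119, beside 30.8% of all genes tested (29.7% were higher), and EpiSCs were lower than ESCs in these and in BC061212, beside 32.0% (29.2% were higher). Pramel3 had 75 fragments in ESCs against 1 in AFSCs, a ratio of 85.2 (counting interval 14.8 to 3410), and was at least 33.0-fold lower in EpiSCs. The call of BC061212 in EpiSCs against ESCs rested on 7 fragments against 0 (adjusted p = 0.0485), and was lost without a filter on low counts (0.0605), with a stricter filter (0.051), without EpiSC replicate 1, 2 or 3 and without ESC replicate 1 or 3 (0.0566 to 0.339). In AFSCs against ESCs the same gene was not called (adjusted p = 0.0597), but was under DESeq2's Wald test (0.0114) and without ESC replicate 2 (0.0234). Against EpiLCs, 6 of the 7 genes were lower in AFSCs and 6 in EpiSCs, all but B020004J07Rik, which had no fragment there, beside 24.4% and 27.0% of all genes tested that were lower and 22.6% and 21.5% that were higher. EpiSCs against AFSCs gave 0 calls by edgeR, 0 at an unadjusted p under 0.05 and 0 by DESeq2, with 17.8% of all genes tested higher and 21.6% lower. With 1 fragment of Pramel1 and 1 of Pramel3 in AFSCs and none in EpiSCs, no call could be made, and the 0 calls do not show likeness.

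The 41 other PRAME family genes, listed by annotation, were then read in the same samples. Of them 33 had a count in at least 1 sample and 18 were tested. Of the 18, 5 (Gm13078, Gm16427, Gm3139, Gm6509 and Gm7942) passed the count filter only through the ASC samples and had to be higher there, and they are left out of the counts for ASCs. Of the other 13, 7 share 50-base stretches with the genes chosen for their ASC level, Gm7978 all of those of BC061212 among them, and so partly read the same fragments. In ASCs against ESCs 8 of the 13 were higher, 2 lower and 3 not called, beside 26.4% higher and 23.9% lower over all genes tested. Among the 6 with no shared stretch, Pramef8 was higher, Pramel6 and Pramel7 were lower, and Pramef12, Pramef17 and Gm13128 were not called. Pramef17 and Gm13128 were 99.3% identical over aligned bases, so that they may read the same fragments and do not stand as separate observations. Against EpiLCs, AFSCs and EpiSCs 13 of 13 were higher in ASCs, the 6 included, beside 31.4%, 32.8% and 35.9% of all genes tested that were higher and 28.4%, 31.2% and 30.7% that were lower. The highest group mean was that of ASCs for 9 of the 13 and that of ESCs for the other 4. Among the 6 it was that of ASCs for 2 and that of ESCs for 4.

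The 6 other family genes with the highest mean level over the 18 samples held 3 patterns. Gm7971, Gm16429, Gm10424 and A430089I19Rik, copies on chromosome 5 that share 50-base stretches with BC061212, stood at 173 to 242 normalized reads per kb in ASCs, 9.09 to 21.3 in EpiLCs, 3.97 to 10.1 in ESC-ASCs and 0.630 to 1.81 in ESCs, and at 0 in AFSCs and EpiSCs. Their log2 fold changes in ASCs against ESCs were 7.32 ± 0.39, 7.31 ± 0.40, 7.30 ± 0.42 and 7.24 ± 0.36, and as their counts were nearly equal in each sample they do not stand as separate observations. Pramef12 was at 103, 137 and 146 in ASCs and 94.9, 139 and 142 in ESCs, a difference of 0.01 ± 0.22 (adjusted p = 0.989), and at 0 in EpiSCs. Pramef8 was read in every sample, at 82.4, 75.1 and 73.8 in ASCs and 27.4 to 34.3 in EpiSCs, and was 1.19 ± 0.15 higher in ASCs than in ESCs (adjusted p = 4.32e-06).

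Pramel6 and Pramel7, the members known from naive ESCs, were the 2 genes called lower in ASCs than in ESCs. Pramef17 and Gm13128 also had lower ASC means, without a call. Pramel7 was at 38.9, 50.6 and 39.6 normalized reads per kb in ASCs against 112, 68.7 and 83.6 in ESCs (-1.04 ± 0.22, adjusted p = 0.00189), and Pramel6 at 26.9, 21.4 and 24.2 against 80.3, 63.7 and 59.4 (-1.50 ± 0.26, adjusted p = 0.000266). In ESC-ASCs both were nearly absent, with 6 and 9 fragments in 3 samples, -7.40 ± 0.36 and -6.46 ± 0.38 against ESCs. They were named after their values were seen.

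Among the 13 other genes, ESC-ASCs were lower than ASCs in 12 (5 of the 6 with no shared stretch), beside 27.7% of all genes tested lower and 23.0% higher, and Pramef12 was not called (adjusted p = 0.486). Against ESCs 6 of the 13 were higher in ESC-ASCs and 4 lower (Pramel7, Pramel6, Pramef17 and Gm13128). Over all genes tested, 30.6% were higher and 29.6% lower. Of the 13, the other 3 (Gm7978, Pramef12 and Pramef8) were not called. None of the 6 genes with no shared stretch was among the higher ones, and the 4 lower genes all were among the 6. As Pramef17 and Gm13128 may read the same fragments, the 4 lower genes are not all separate observations. These 4 and Pramel3 were present in ESCs and lower in ESC-ASCs. Gm12800, Pramef25 and the copies Gm7971, Gm16429, Gm10424 and A430089I19Rik were near 0 in ESCs and higher in ESC-ASCs. Other genes present in ESCs were not lower in ESC-ASCs. Pramef12 and Pramef8, with ESC means of 125 and 33.4 normalized reads per kb, and Gm13119 were not called. Pramel1, with 18 fragments in ESCs, was higher. BC061212 and Gm7978 on chromosome 5 were not called, nor were Gm16427, Gm3139 and Gm6509, tested through the ASC samples alone.

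**Figure D4:**
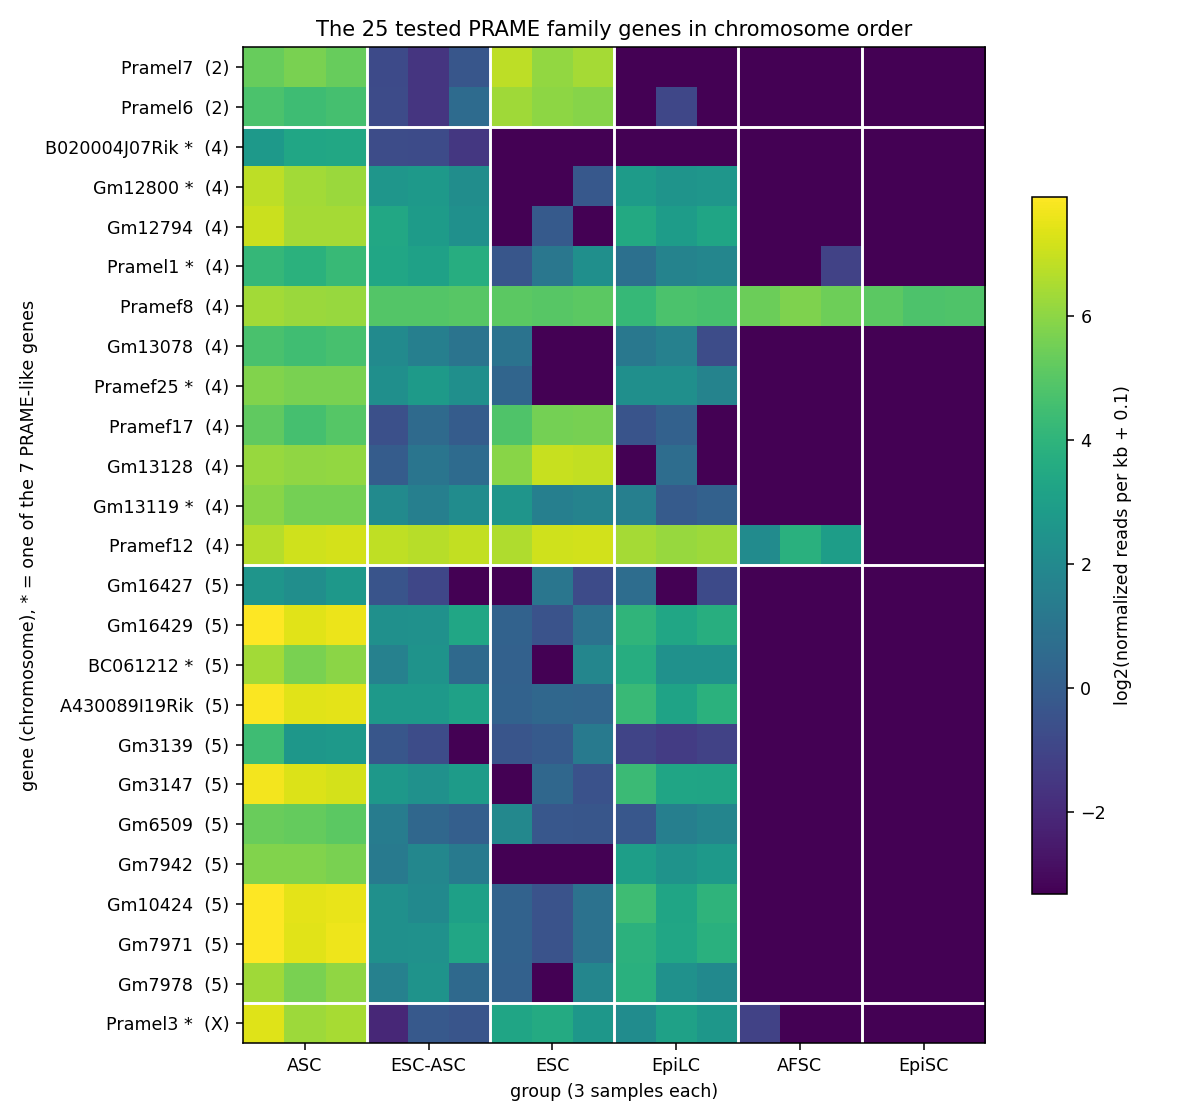
Level of the 25 tested PRAME family genes, in chromosome order on the y axis with the chromosome in brackets and a star for the 7 genes, in the 18 samples on the x axis, as log2(normalized reads per kb + 0.1) in colour. The ASC columns are the brightest for most rows, but the 7 starred genes were chosen for this and 5 others were tested only through ASCs. Among the 6 other genes with no stretch shared with the 7, the highest mean was that of ASCs for 2 and of ESCs for 4. The EpiSC columns are at 0 for all rows but Pramef8. Pramel6, Pramel7, Pramef17 and Gm13128 are bright in ESCs and ASCs and dark in ESC-ASCs.

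Profiles of the 7 genes resembled each other to unequal degrees over the 18 samples, on the scale log2(normalized reads per kb + 0.1). Pearson's r between 2 of the 7 ran from 0.632 (Pramel3 with B020004J07Rik) to 0.956 (Gm12800 with BC061212), and the points share libraries and groups, so that r mostly follows the group means. Outside the family list, the 10 tested genes most like the mean profile of the 7 were Tcstv1 (r = 0.988), Gm13043, Gm13040, Gm13057, BC080695, Zscan4d (0.977), Gm21761, Zscan4-ps1, BB287469 and Gm20767 (0.971). Gm13043, Gm13040, Gm13057 and BC080695 did not carry a family name but lie on chromosome 4 between the family genes Oog4 and Gm13083. They share 29.7% to 34.1% of the 50-base stretches of Pramef25 and 15.8% to 21.5% of those of Gm13119, and so may take the same fragments. Their ASC means were 159 to 231 normalized reads per kb, above the 52.6 of Pramef25 and the 51.8 of Gm13119. Their likeness thus does not stand apart from that of the family copies. How much of the Pramef25 and Gm13119 levels came from fragments shared with these more abundant genes was not tested. Tcstv1 is a 2-cell-stage gene and Zscan4d a member of the Zscan4 family of telomere-linked factors.

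Markers of 2-cell-like cells were highest in ASCs, as the 7 genes were, and near 0 in the primed groups. In ESC-ASCs the marker sum stood above that of ESCs. Of the 7 genes, Pramel1, Gm12800 and Pramef25 were higher there than in ESCs and Pramel3 was lower. Gm13119, BC061212 and B020004J07Rik were not called. The summed level of 13 such markers, Zscan4, Tcstv and Usp17l genes with Zfp352 and Tmem92, was 2967 to 3668 normalized reads per kb in ASCs, 221 to 318 in ESC-ASCs, 163 to 255 in EpiLCs, 27.0 to 39.8 in ESCs, 1.60 to 8.60 in AFSCs and 0 to 1.75 in EpiSCs. All 13 had counts in ASCs, ESC-ASCs and EpiLCs, 3 were at 0 in ESCs (Tcstv3, Tmem92 and Usp17ld), 6 in AFSCs and 8 in EpiSCs. ESC-ASC and EpiLC samples overlapped in this sum. The Zscan4, Tcstv and Usp17l genes are families, and a fragment was given to every gene it matched. The sum may therefore hold the same fragments more than once, and the 13 may not stand as separate observations. How much these markers share was not measured. The study describes ESC-ASCs as without 2-cell-like gene expression, whereas this sum was higher in ESC-ASCs than in ESCs. Its own measure was not compared with the sum. By immunofluorescence the study found a minority of ASCs positive for MERVL-Gag and negative for OCT4, and such cells were rarer in ESCs. The part of 2-cell-like cells in the levels of the 7 genes was not tested.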

How the data were processed

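RNA was enriched for polyA tails, made into directional libraries and sequenced on HiSeq4000. Per the labels and the study's methods, the authors aligned the reads with TopHat2 to GRCm38/mm10 and deposited raw counts of fragments per Ensembl release 86 gene from featureCounts 1.5.0-p1, with a minimum overlap of 10 bases, fragments given to every overlapping gene and multiply mapped fragments kept, and no strand option. The authors' own normalization divided counts by DESeq2 size factors and gene length.

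The 7 genes and the gene and marker lists were chosen with earlier results of these data known. A PRAME family gene had Pramef, Pramel, PRAME or Oog1 to Oog4 as its symbol, RefSeq symbol or synonym, and 47 of the 48 matched a RefSeq gene, 8 of them by position. Levels were counts divided by size factors and exonic length in kb. Genes that reached 10 counts in 3 or more samples (16901) were tested in 1 fit of all 6 groups with edgeR 4.0.16 (quasi-likelihood test, TMM, Benjamini-Hochberg) in R 4.3.3, with an adjusted p below 0.05 as the threshold, and the script was tested on simulated data. Named were the 7 genes and the 6 other family genes with the highest mean level. The 10 genes with the most similar profile outside the family list were named too. Pramel6, Pramel7, Pramef17, Gm13128 and the closest copies were named after their values were seen. Total counts were 4961934 to 18071600 per sample, and a count of 0 was read as up to 3 fragments over the group. Ratios with 1 to 3 counts in a group have 95% exact (Clopper-Pearson) counting intervals. Replicates of every group differed by more than counting error (chi-square per degree of freedom 1.65 to 100), with replicate 1 apart in 4 groups. Samples share replicate numbers across groups. The deviations of same-numbered samples correlated over 0.1 in each pair only for EpiLC against ESC (0.178 to 0.462) and AFSC against ESC (0.295 to 0.511). The study's methods name no pairing, and the main fit held no block, so that its p-values take no account of this. The replicate block, an alternative, was fitted over all 6 groups, and no fit paired these comparisons alone. In EpiLC against ESC 3 of 6 samples correlated best with their own number, and in AFSC against ESC 6 of 6. Alternatives were DESeq2 1.42.0 size factors and its Wald test, 2 other filters, the replicate block, only the groups compared, thinned ESC-ASC counts, TMM levels and leaving out each replicate. The counts over subsets of the other family genes and the ASC means without replicate 1 were chosen after the data were seen.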

Additional observations from a re-analysis of the deposited data

Results flagged for a closer look

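Pramel3 went opposite ways in ASCs against AFSCs and in ESC-ASCs against ESCs. It was higher in every ASC sample than in every AFSC sample and lower in every ESC-ASC sample than in every ESC sample (log2 fold change -4.003). The difference between these comparisons was not tested, because the ASC level chose the gene. With 1 fragment in AFSCs, Pramel3 had almost no room to be lower in ASCs. In ESC-ASCs against ESCs, a difference of line and the culture in ABCL cannot be told apart.

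The family genes Pramel7, Pramel6, Gm13128 and Pramef17, which are outside the 7, did the same. Without a fragment in AFSCs, these 4 genes could not be lower in ASCs. The limit on line and culture in ESC-ASCs against ESCs holds for them and for the interaction too. The interaction in the edgeR fit, (ASC minus AFSC) minus (ESC-ASC minus ESC), was added after the data were seen. As the 4 genes were picked for this pattern, their adjusted p-values restate the choice. Of the 13 other family genes tested without need of the ASC samples, 12 had a higher interaction and 0 a lower one. The 6 of them with no shared stretch, the 4 genes among these, were all higher. The rest partly read the fragments of genes chosen for their ASC level. Pramel7 had 258 fragments in ASCs, 0 in AFSCs, 6 in ESC-ASCs and 407 in ESCs, with an adjusted p of 1.16e-10. Pramel6 had 141, 0, 9 and 310 (1.72e-10), Gm13128 339, 0, 15 and 428 (2.50e-10) and Pramef17 150, 0, 10 and 173 (8.37e-10). Gm13128 and Pramef17, 99.3% identical over aligned bases, may read the same fragments. Over all genes tested, 30.8% had a higher and 27.7% a lower interaction.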

How the results depend on the processing

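The 7 genes kept every ASC sample above all others on TMM-scaled CPM per kb (7 of 7). Fitting only the groups compared left 1 of the 7 genes past the count filter in 5 comparisons without ESC-ASCs, and the calls came to 0 for EpiLC against ESC and to 1 each for AFSC against ESC, EpiSC against ESC, AFSC against EpiLC and EpiSC against EpiLC. All 181 other alternatives for the counts of calls stayed within 1.5 times. Without single replicates, the calls among the 7 genes ranged from 2 to 4 for ESC-ASC against EpiLC and from 2 to 3 for EpiLC against ESC.

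Fold changes that changed sign were all near 0 and not called. Gm13119 in ESC-ASCs against ESCs went from 0.02 to -0.0067 with the replicate block, to -0.18 with thinned counts and to between -0.16 and 0.29 without single replicates. Pramel1 in EpiLCs against ESCs went from 0.01 to -0.021 without a filter and to between -0.31 and 0.84 without single replicates. Gm12800 in ESC-ASCs against EpiLCs went from -0.15 to 0.0042 without ESC-ASC replicate 3, in a range of -0.23 to 0.0042 without single replicates. With thinned ESC-ASC counts B020004J07Rik had no counts left in some comparisons and gave no value.

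With the replicate block, the calls among the 7 genes were 4 for ESC-ASC against ESC and 4 for EpiLC against ESC (Gm13119 added), and it changed no other call among the 7 genes. Outside the comparisons taken as paired the samples share only a number. Depth limits B020004J07Rik most, with 5 fragments outside ASCs.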
